A study of Ascaris suum with 10 samples.

Results

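Transcripts of the early embryo of the pig roundworm Ascaris suum, a large parasitic nematode, were set against those of the ovary. Polyadenylated RNA had been sequenced from a North American wild population. The embryo side rests on 3 libraries of fertilised eggs taken from the uterus and incubated at 30 °C, for 24 hr (1 cell), 46 hr (1 to 2 cells) and 64 hr (2 to 4 cells). The ovary side is 1 library of the germinal zone of the adult ovary. Together they are 4 of the 10 libraries and 2 of the 8 columns of the deposited expression table, because the 3 embryo libraries share a single column. How they were combined is not stated in the labels, so the column stands as the authors' own embryo value and has no spread, and changes between 24 and 64 hr could not be followed. All 15446 genes of the table were compared. The other columns are testis (germinal zone), larva (second stage, 7 days), intestine, muscle with hypodermis, and the male and female carcass, both made up of muscle, hypodermis, pharynx and neurons. The labels give no treatment or genotype, and do not say how many animals went into a library.

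In nematodes the oocyte is loaded with messenger RNA and protein made in the ovary, and the first cell divisions run largely on this maternal store. Some maternal transcripts are cleared after fertilisation while others persist, and transcription from the embryo's own genome adds new ones. Ascaris is known for its slow early cleavage and for transcription that begins in the pronuclei, before the first division. It is also known for programmed DNA elimination, in which the cells that will form the soma discard part of the germline genome during cleavage. The germinal zone holds germ cells ahead of the mature oocyte, and later oocyte growth and the passage of the zygote through the uterus lie between that library and the first embryo library.

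Values are RPKM as the authors named the unit, that is, read numbers corrected for gene length and library size, rounded to 1 decimal. The difference between the columns is log2((embryo + 1)/(ovary + 1)), called the log2 ratio here, and the added 1 RPKM understates the change of low genes. A gene was called gained at a log2 ratio of 2 or more (4-fold on that scale), lost at -2 or less, and kept where the ratio was between -1 and 1 and either column reached 1 RPKM. Between these lie genes called moderately higher or lower. Genes under 1 RPKM in both columns are called low in both. Each side of the comparison is a single column, so there is no replicate error, no test was possible, and every difference compares these libraries only. In bulk RNA, fewer cells with a transcript and less of it per cell cannot be told apart. The table does not pair its identifiers with gene names, so the labelled tissues could not be checked against marker genes, pathways could not be described, and only 2 gained and 2 lost genes are named, with the 2 most abundant kept ones.

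Most transcripts of the ovary were also in the embryo, and the 2 columns held nearly equal numbers of detected genes. With detection set at 1 RPKM, ovary held 12211 genes and embryo 12213. Both columns detected 10983 of these, which is 89.9% of either list, while 1228 were detected in ovary and not in embryo and 1230 in embryo and not in ovary. A total of 2005 genes were low in both. Over the whole table, embryo detected 79.1%. A high overlap with ovary was not particular to embryo. Where ovary reached 5 RPKM, larva detected 98.0%, embryo 97.0%, female carcass 93.8% and testis 90.1%. Intestine was the lowest column there, with 76.6%. The typical embryo level was higher, with a median of 11.3 RPKM over all genes against 7.3 RPKM in ovary, although the summed RPKM of the columns was similar, 583660 in embryo and 596733 in ovary.

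By size of change, 6722 genes (43.5%) were kept, 3074 (19.9%) were moderately higher in embryo, 1534 were gained, 1363 (8.82%) were moderately lower and 748 were lost. The share of all genes gained was 9.93% and the share lost 4.84%, together 14.8%. The same threshold was passed by 5.98% of genes between male and female carcass, the only libraries given the same tissues by the labels, 2.40% being higher in female and 3.59% higher in male. For genes that reached 10 RPKM in the higher column, the median absolute log2 ratio was 1.06 for embryo against ovary and 0.59 for the carcasses. Spearman's rho across genes was 0.78 for embryo with ovary and 0.86 for the carcasses, as descriptions over genes of single libraries. At the edge of the gained class a gene with 31.4 RPKM in embryo and 7.1 in ovary was just inside, and one with 46.1 and 10.8 RPKM was just outside. At the edge of the lost class these were 0.2 RPKM in embryo against 3.8 in ovary, and 8.6 against 37.3.

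**Figure D1:**
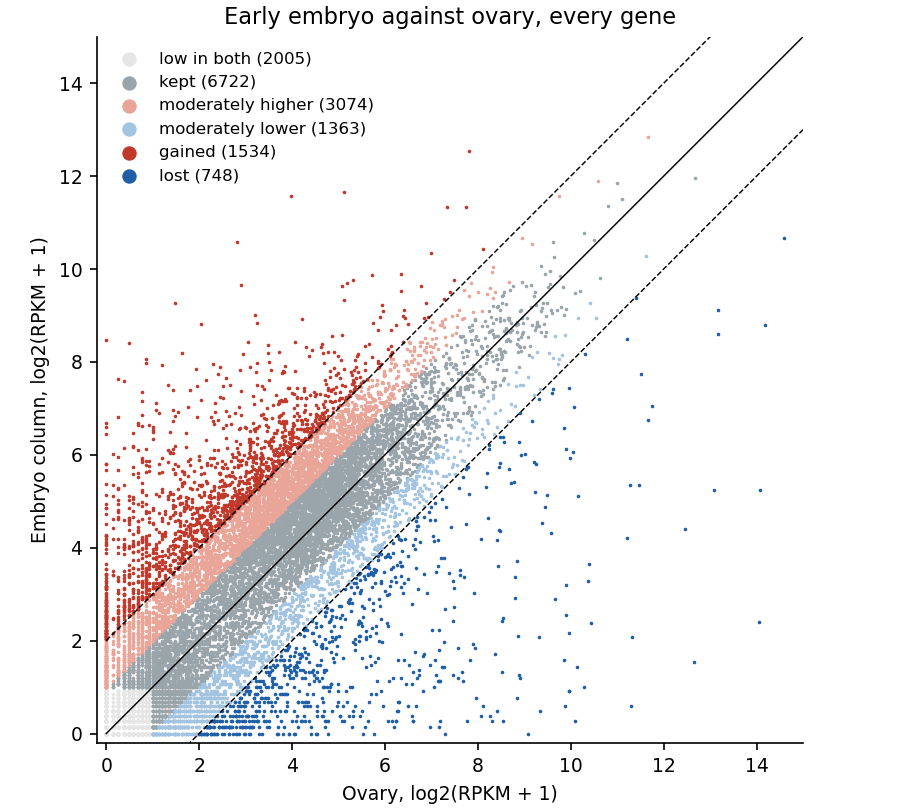
Every gene's level in the ovary column (x axis) and the embryo column (y axis), both as log2(RPKM + 1), coloured by class, with the number of genes in each class. The solid line marks equal levels and the dashed lines a log2 ratio of 2 and -2; 9 of the 10 genes with the highest ovary levels lie below the lower dashed line, and the 1534 gained genes lie mostly at low and middle ovary levels.

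The gained and lost classes depended on how the columns were scaled, and the direction of the balance with it. As deposited, 67.2% of the genes past the threshold were higher in embryo. With both columns scaled by the median ratio over genes above 0 everywhere, which lowers embryo against ovary by 0.60 on the log2 scale, 859 genes were gained and 1147 lost, so that 42.8% were higher in embryo. Scaling to an equal sum after leaving out the 100 highest genes of either column gave 1018 gained and 981 lost (50.9%). Over all genes the median log2 ratio was 0.32 as deposited and -0.03 with the median ratio. Which of the classes is larger is therefore not settled by these columns. From 1 RPKM in ovary upward, the lost share grew and the gained share fell from each class of ovary level to the next, as deposited, with the median ratio and after a subtraction from ovary.

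The lost share was highest among the most abundant ovary transcripts, and gained genes were nearly all at lower ovary levels. Ovary had 127 genes at 500 RPKM or more, of which 56 (44.1%) were lost, 51 (40.2%) were kept and 0 were gained. Of the 689 genes at 100 to under 500 RPKM, 115 (16.7%) were lost, 397 (57.6%) kept and 12 (1.74%) gained. At 20 to under 100 RPKM, the class with the largest kept share, 2248 of 3610 genes (62.3%) were kept, 256 (7.09%) lost and 152 (4.21%) gained. At 5 to under 20 RPKM, 485 of 4296 genes (11.3%) were gained and 265 (6.17%) lost as deposited, but 201 (4.68%) gained and 394 (9.17%) lost with the median ratio, so the level at which gains outnumber losses depends on the scaling. At 1 to under 5 RPKM, 483 of 3489 genes (13.8%) were gained and 56 (1.61%) lost.

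Genes hardly present in ovary added a smaller set. Of the 2182 genes above 0 but under 1 RPKM there, 285 (13.1%) were gained, and of the 1053 listed at 0, 117 (11.1%) were. A gene under 3 RPKM in ovary cannot be called lost by this rule, so the absence of lost genes in these classes is built in. Part of the slope over ovary levels is also built in, because classes set by the ovary value favour genes that happen to stand high or low in that column. The carcasses, classed by the male column, show such a slope for like tissue, but it includes the difference of sex. The size of the built-in part alone cannot be read from it. There, male had 272 genes at 500 RPKM or more, of which 14.3% were lower in female at the same threshold and 0.74% were higher, against 1.26% lower and 3.32% higher at 1 to under 5 RPKM. The share of lost genes at 500 RPKM or more was thus 44.1% for embryo against ovary and 14.3% for the carcasses.

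**Figure D2:**
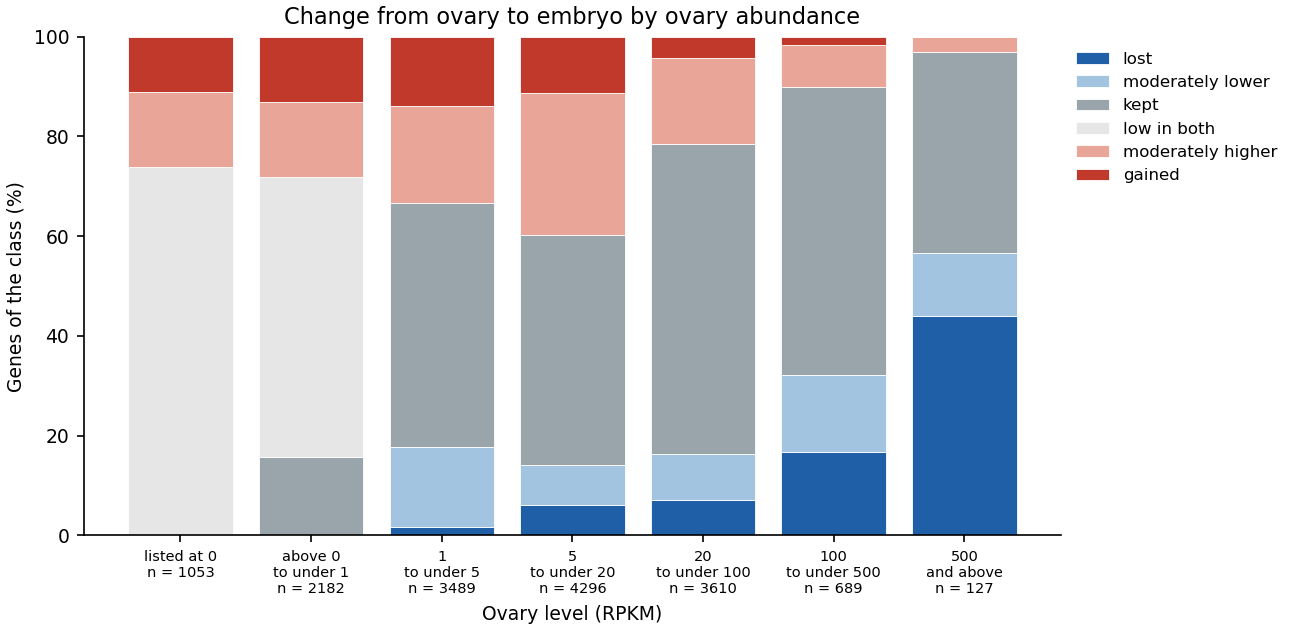
Share of genes (y axis, %) in each change class for 7 classes of ovary level in RPKM (x axis), with the number of genes under each bar. The lost share grows from 1.61% at 1 to under 5 RPKM to 44.1% at 500 RPKM and above, and the gained share falls from 13.8% to 0 over the same classes.

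The medians fell at the higher ovary levels only. The median log2 ratio was 0.25 at 1 to under 5 RPKM in ovary, 0.70 at 5 to under 20, 0.24 at 20 to under 100, -0.35 at 100 to under 500 and -1.42 at 500 RPKM or more. In that last class the embryo levels were widely spread, with quartiles of 39.5 and 605 RPKM around a median of 358, against an ovary median of 858. Within the class, the rank correlation of embryo with ovary level was -0.06 (Spearman's rho over 127 genes). It lay between 0.32 and 0.35 in the 4 classes from 1 to under 500 RPKM. A class holds a limited range of ovary levels, which can lower such a correlation. With genes classed by embryo level instead, rho was 0.16 at 500 RPKM or more. It ran from 0.19 to 0.43 in the classes from 1 to under 500 RPKM. With median ratio scaling, 50.4% of the genes at 500 RPKM or more were lost and 0 gained. After the subtraction from ovary described below, 39.4% were lost and 5 genes gained.

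Detection in embryo rose steeply with the ovary level and then levelled off. It was 26.1% for genes listed at 0 in ovary, 43.8% above 0 to under 1 RPKM, 72.4% at 1 to under 5, 95.8% at 5 to under 20, 98.3% at 20 to under 100, 97.8% at 100 to under 500 and 94.5% at 500 RPKM or more. Few abundant ovary transcripts were thus undetected in embryo, and 439 of the 748 lost genes still had 1 RPKM or more in embryo. Seen from the other side, all 104 genes at 500 RPKM or more in embryo were detected in ovary, and 28 of them (26.9%) were gained. Of the 1063 genes at 100 to under 500 RPKM in embryo, 98.9% were detected in ovary and 268 (25.2%) were gained.

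The most abundant ovary transcripts accounted for a larger part of the ovary column than of the embryo column. The 100 highest ovary genes held 38.8% of the summed RPKM in ovary and 10.7% in embryo, and their choice by ovary level favours ovary. The 748 lost genes held 36.6% of the summed RPKM in ovary and 1.71% in embryo. The 1534 gained genes held 2.30% in ovary and 21.5% in embryo. Lost and gained genes were chosen by the ratio, so the direction of these 2 shifts is built in. The kept genes held 42.1% in ovary and 46.6% in embryo. Genes that were not lost thus made up 63.4% of ovary and 98.3% of embryo, a ratio of 1.55. RPKM are shares of a library, so the levels of other genes move up when abundant ones go down. How much of the gained class this accounts for was not tested.

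The embryo column was also spread over more genes. In ovary, 260 genes made up 50% of the summed RPKM, and in embryo 882 did, the highest number of the 8 columns (the lowest was 47 in testis). Embryo is also the only column that joins 3 libraries of different times, and what this adds to the number was not tested. The 100 highest genes held 38.8% of ovary and 19.7% of embryo. The top 100 lists of the columns shared 36 genes, and the top 1000 lists shared 540. Of the 10 highest ovary genes, which held 20.6% of the ovary sum and 1.22% of the embryo sum, 9 were lost and 1 was kept. Of the 100 highest ovary genes, 50 were lost and 35 kept. Of the 100 highest embryo genes, 26 were gained and 49 kept, and their median rank in ovary was 178.

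**Figure D3:**
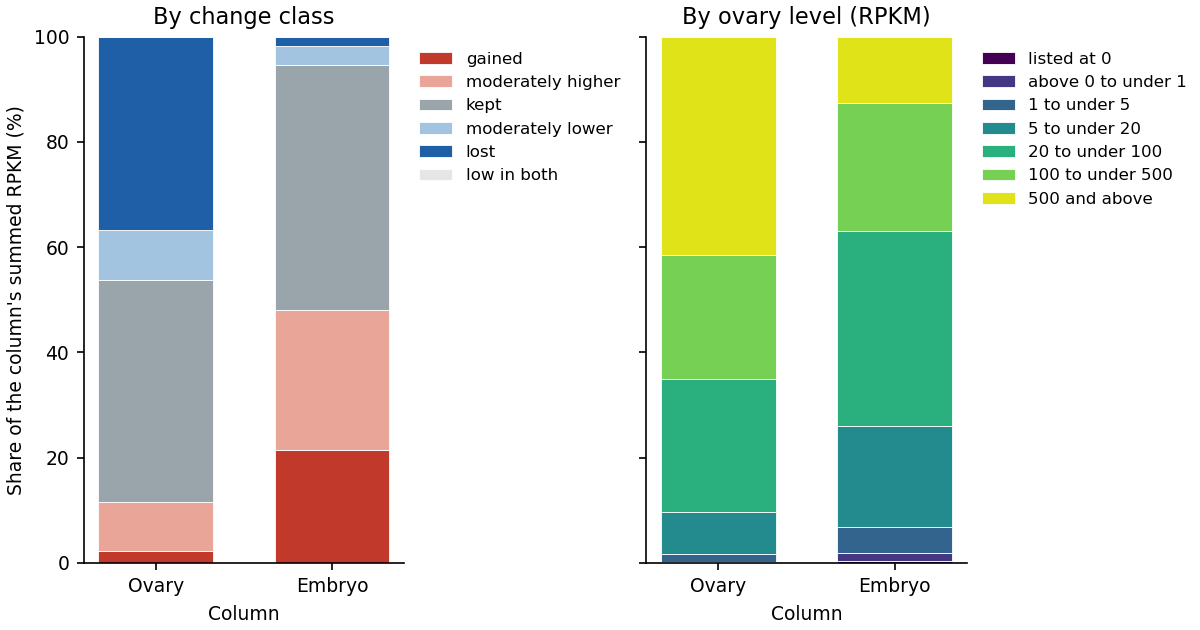
Share of the summed RPKM of the ovary and embryo columns (y axis, %) held by genes of each change class (left) and of each class of ovary level (right). Lost genes, chosen by the ratio itself, shrink from 36.6% of ovary to 1.71% of embryo. Genes at 500 RPKM or more in ovary go from 41.4% of ovary to 12.5% of embryo.

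The named lost genes were the 2 most abundant transcripts of ovary. ASG00235, the highest gene of the ovary column, stood at 24713.7 RPKM in ovary and 1632.2 in embryo, a log2 ratio of -3.92. It was lower in the other columns, at 2077.2 RPKM in female carcass, 837.1 in muscle, 609.5 in larva, 207.2 in male carcass, 108.2 in testis and 4.7 in intestine. Although called lost, it was still the gene of rank 14 in embryo. ASG15139, ranked 2 in ovary, stood at 18472.9 RPKM there and at 443.4 in embryo (log2 ratio -5.38). It was as high in testis, at 18982.6 RPKM, and stood at 12194.2 in larva, 2344.2 in female carcass, 655.2 in intestine, 485.9 in male carcass and 442.2 in muscle. Its embryo level was thus below those of both gonads and larva and near those of muscle and male carcass.

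The gained genes with the highest embryo levels were far above every other column. ASG07417 stood at 5918.4 RPKM in embryo, where it ranked 2, and at 224.8 in ovary, a log2 ratio of 4.71. It reached 336.4 RPKM in female carcass and lay between 7.4 (intestine) and 75.8 (male carcass) in the remaining columns, with 60.4 in larva and 47.2 in testis. ASG01514 stood at 3239.2 RPKM in embryo and 33.9 in ovary (log2 ratio 6.54). Its next highest level was again in female carcass, at 421.9 RPKM, and the others ran from 63.4 in testis to 149.1 in male carcass. Neither gene was absent from ovary.

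The most abundant kept genes were high throughout. ASG02173 stood at 6501.3 RPKM in ovary and 3971.1 in embryo, a log2 ratio of -0.71, and between 1059.7 (testis) and 4422.8 (larva) elsewhere. Outside the limit for kept, its log2 ratio was -1.31 with the median ratio, -1.29 with the upper quartile and -1.11 with an equal sum without the 100 highest genes. ASG07513 stood at 2209.1 RPKM in ovary and 2903 in embryo (log2 ratio 0.39), and between 1032.1 (testis) and 4559.6 (intestine) elsewhere. Under the same 3 scalings its log2 ratio was -0.20, -0.18 and -0.0042, so its sign is not settled, while it stayed within the limit for kept.

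The gained class consisted mainly of genes that the ovary column already listed at a low level of 1 RPKM or more. Whether such low values are ovary expression was not tested. Ovary detected 1132 of the 1534 gained genes at 1 RPKM or more, and 649 of them at 5 RPKM or more. The other 402 (26.2%) were under 1 RPKM in ovary and 117 were listed at 0. The class had medians of 33.8 RPKM in embryo (quartiles 15.3 and 79) and 3.5 RPKM in ovary. In embryo, 1033 gained genes were at 20 RPKM or more, 296 at 100 or more and 28 at 500 or more. Most of the changes were moderate in size, with 487 genes at a log2 ratio of 3 or more, 195 at 4 or more, 75 at 5 or more and 24 at 6 or more. The highest was 8.47.

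The median embryo level was 5.3 RPKM for gained genes listed at 0 in ovary and 10.7 RPKM for those above 0 and under 1. It was 22.7 RPKM for those at 1 to under 5, 61.2 for those at 5 to under 20 and 176 for those at 20 to under 100. The rule requires a higher embryo level from a gene with a higher ovary level, so this order is built in.

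Most gained genes were also found in testis and in adult somatic tissue. These other columns played no part in the choice of gained genes. At 1 RPKM or more, 975 of the 1534 (63.6%) were detected both in testis and in at least 1 of the 4 adult somatic columns, 427 (27.8%) in adult soma and not in testis, 47 (3.06%) in testis and not in adult soma, and 85 (5.54%) in neither. For the 9449 genes that reached 5 RPKM in embryo these shares were 84.5%, 12.4%, 1.64% and 1.46%, and for the whole set of genes they were 60.0%, 23.7%, 6.56% and 9.72%. For detection in both, and in soma without testis, the gained genes lay nearer to the whole table. For testis without soma they lay nearer to the genes at 5 RPKM or more in embryo. For neither they lay about midway. The genes at 5 RPKM or more in embryo, which include 1464 of the gained, also stood higher in ovary, with a median of 17 RPKM against 3.5 for the gained. The female carcass column decided much of the smaller groups. Without it, 137 gained genes were found in testis and not in soma, and 167 in neither.

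By column, larva detected 1328 gained genes (86.6%), female carcass 1319 (86.0%), male carcass 1172 (76.4%), testis 1022 (66.6%), muscle 897 (58.5%) and intestine 781 (50.9%). Of all genes, larva detected 81.2%, female carcass 74.9%, male carcass 75.6%, testis 66.6%, muscle 64.2% and intestine 55.8%. The gained shares were thus near these in testis and male carcass, above them in larva and female carcass, and below them in muscle and intestine. Over all genes at 5 RPKM or more in embryo, testis had 86.1%, intestine 74.2%, muscle 80.5%, male carcass 90.3%, female carcass 94.3% and larva 96.2%. The levels of gained genes in these columns were low. The gained genes had their highest median outside embryo in larva, at 7.8 RPKM, followed by 4.85 in female carcass, 3.4 in male carcass and 2.2 in testis, and it was 1.55 in muscle and 1 in intestine. At 5 RPKM or more, 364 gained genes were found in both testis and adult soma, 555 in soma alone, 119 in testis alone and 496 in neither. Embryo was the highest of the 8 columns for 1213 of the 1534, or 79.1%, against 31.7% of all genes and 47.2% of genes at 5 RPKM or more in embryo. In 413 (26.9%) it was at least 4-fold above each of the 6 columns other than ovary, against 4.33% and 7.02%. The choice of genes high in embryo favours both counts.

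**Figure D4:**
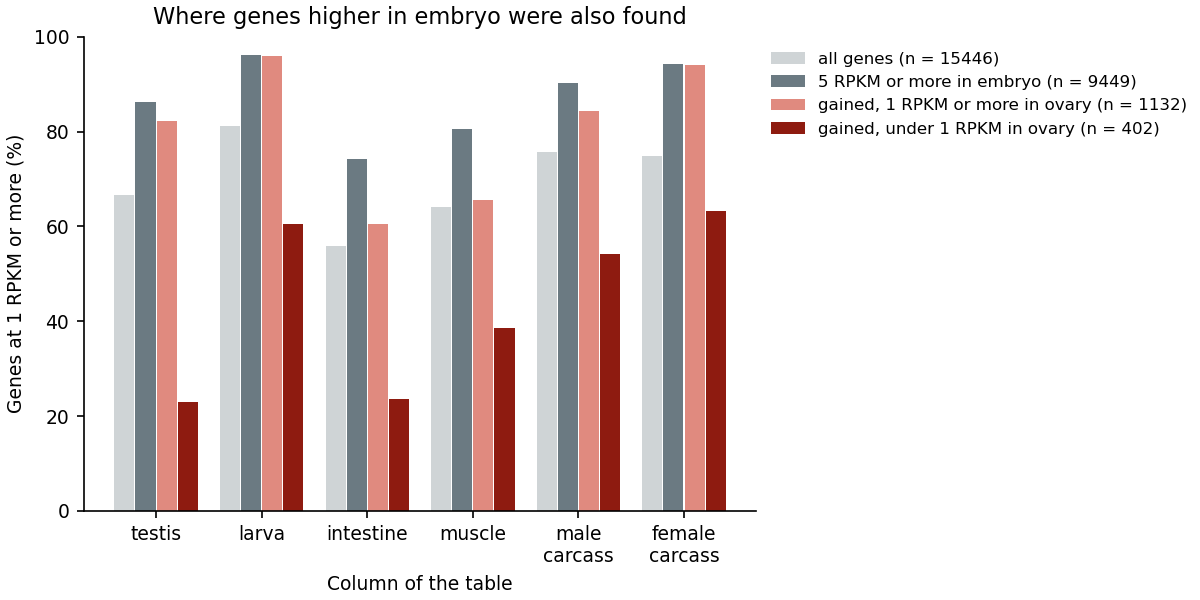
Share of genes detected at 1 RPKM or more (y axis, %) in testis, larva and the 4 adult somatic columns (x axis), for all genes, genes at 5 RPKM or more in embryo, and gained genes with and without 1 RPKM in ovary. Gained genes under 1 RPKM in ovary were the least often detected in each of the 6 columns, at 22.9% in testis and 63.2% in female carcass.

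Gained genes under 1 RPKM in ovary were found in adult soma more often than in testis, although soma counts 4 columns and testis 1. Of these 402, 241 (60.0%) were detected in adult soma and not in testis, 66 (16.4%) in both, 26 (6.47%) in testis and not in soma, and 69 (17.2%) in neither. Without female carcass the number in neither was 119. By column, female carcass detected 63.2%, larva 60.4%, male carcass 54.2%, muscle 38.6%, intestine 23.6% and testis 22.9%. Low ovary levels go with low detection in testis in general. Among genes above 0 and under 1 RPKM in ovary, testis detected 26.3% of the 285 gained genes and 19.9% of the 161 other genes at 3 RPKM or more in embryo. Adult soma detected 77.9% and 65.2% of them. At 5 to under 20 RPKM in ovary, testis detected 92.8% of the 485 gained and 85.5% of the 3345 other genes. In soma the order depended on the column. At 5 to under 20 RPKM, female carcass detected 97.9% of the gained and 94.7% of the other genes, but muscle detected 71.8% and 77.7% and intestine 71.5% and 74.3%. The gained genes had the higher embryo levels, with medians of 10.7 against 3.8 RPKM in the lower class and 61.2 against 18.1 in the upper.

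A small group of gained genes stayed under 1 RPKM in testis, larva and all adult somatic columns, which does not mean listed at 0. There were 38 of them (2.48% of the gained), with embryo levels from 3.1 to 57.8 RPKM and a median of 5.95. Of these, 19 were listed at 0 in ovary and 1 reached 1 RPKM there. Of all genes, 689 (4.46%) were under 1 RPKM in those 6 columns, a share that includes genes low in both ovary and embryo. Among the 9449 genes at 5 RPKM or more in embryo, 43 (0.46%) were. For gained genes at that level the count was 27 of 1464 (1.84%). The 47 gained genes found in testis and not in adult soma stood at medians of 14.1 RPKM in embryo and 6.4 in testis, with 0.9 in ovary. In 16 of these 47, testis was above embryo, and in 13 embryo was at least 4-fold above testis on the log2(RPKM + 1) scale. Of the 47, 19 were also detected in larva.

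Gained genes were skewed towards female carcass when the carcasses were compared with each other, a contrast that uses neither embryo nor ovary. Of the 1534 gained genes, 87 (5.67%) were at least 4-fold higher in female carcass and 41 (2.67%) in male carcass, where all genes gave 2.40% and 3.59%. At 2-fold, 368 (24.0%) were higher in female and 138 (8.996%) in male, against 12.2% and 10.9% of all genes. The median log2 difference, female minus male, was 0.29 for gained genes, 0 for all genes, 0.03 for kept genes and 0.14 for all genes at 5 RPKM or more in embryo. The median was above that of other genes at 3 RPKM or more in embryo in each ovary class that could be compared from above 0 to under 500 RPKM, for example 0.68 against 0.18 at 20 to under 100 RPKM.

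The upper end of the gained class was described by genes led by embryo, meaning 50 RPKM or more in embryo and no more than 20% of that anywhere else. The 194 such genes are all gained by construction and are no second observation. They had a median of 107 RPKM in embryo. In female carcass they stood at a median of 6.29% of their embryo level (quartiles 4.24% and 10.7%), and 187 of them were detected. In male carcass they stood at 1.87%, in muscle at 0.78% and in intestine at 0.46%. In larva the median was 7.07%, in ovary 5.08% and in testis 2.37%. Whether reproductive tract or eggs are part of the female carcass library is not stated in the labels, which list only body tissues, and their part in the somatic detection of gained genes was not tested. Without the female carcass column, the gained genes found in soma numbered 345 without testis and 885 with testis.

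**Figure D5:**
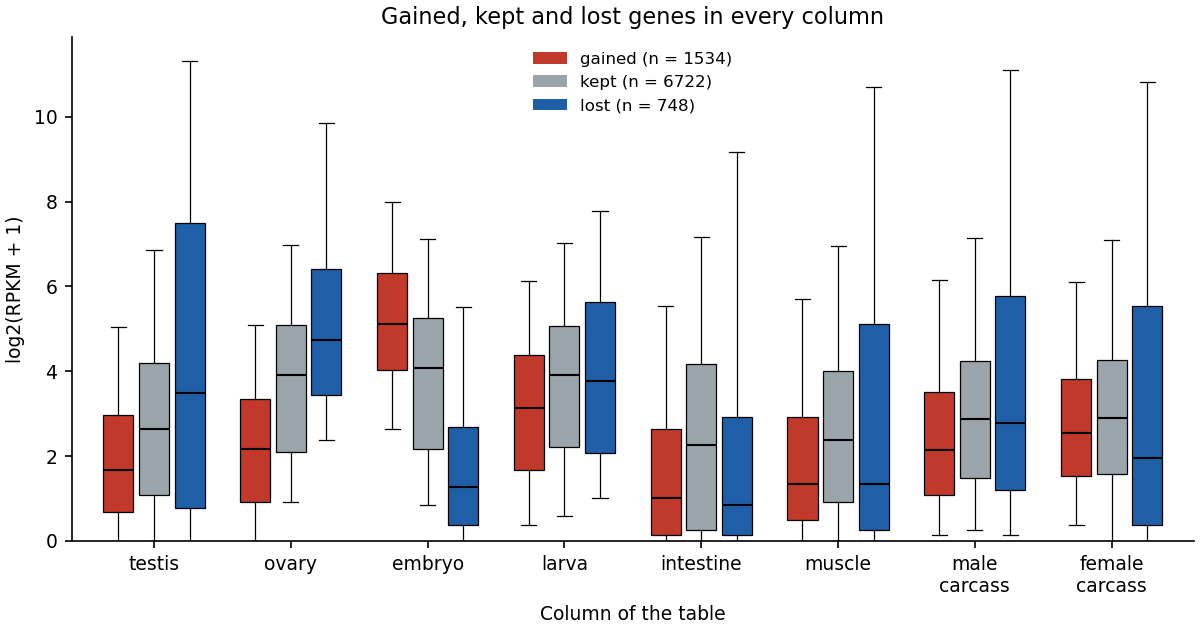
Levels of gained, kept and lost genes as log2(RPKM + 1) (y axis) in the 8 columns (x axis); boxes span the quartiles, lines mark medians and whiskers reach the percentiles 5 and 95. The median of gained genes is 4.85 RPKM in female carcass but 3.4 in male carcass, and lost genes reach the widest range in testis.

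Kept genes were detected in the other columns more often than all genes, but less often than genes at 5 RPKM or more in embryo or ovary. Of the 6722, 5980 were detected in both ovary and embryo, 401 reached 1 RPKM in ovary alone and 341 in embryo alone. Their medians were 14 RPKM in ovary and 16 in embryo, and 14 in larva. Of the kept genes, 3999 (59.5%) were detected in all 4 adult somatic columns, against 58.0% of moderately higher genes, 46.9% of all genes, 40.0% of gained and 27.3% of lost genes. For genes at 5 RPKM or more in embryo this share was 67.5%, and for those in ovary 69.9%. Testis detected 76.9% of the kept genes and 66.6% of all genes. It detected 86.1% of genes at 5 RPKM or more in embryo and 90.1% of those in ovary. Under 1 RPKM in all adult soma were 727 kept genes (10.8%), 16.3% of all genes, and 3.10% and 2.17% of genes at 5 RPKM or more in embryo and ovary. Of the 4889 kept genes at 5 RPKM or more in the higher column, 88 (1.80%) were under 1 RPKM in all adult soma, 25 of these also in larva, and 6 were under 1 RPKM in all 6 other columns. For gained genes at that level the counts were 111 of 1464 (7.58%), 54 and 27, and for lost genes 65 of 692 (9.39%), 9 and 2.

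Lost genes formed a mixed class by their highest column. Their medians were 25.8 RPKM in ovary (quartiles 9.9 and 84.5) and 1.4 RPKM in embryo. In embryo, 309 of the 748 (41.3%) were under 1 RPKM, 48 were listed at 0 and 194 were still at 5 RPKM or more. Ovary was the highest column for 196 (26.2%), testis for 238 (31.8%), larva for 117 (15.6%) and an adult somatic column for 197 (26.3%). Over all genes, ovary was the highest for 9.78%, testis for 12.9%, larva for 20.1% and adult soma for 25.6%, and a class chosen for high ovary levels favours ovary. The decreases ran further than the increases, with 326 genes at a log2 ratio of -3 or less, 106 at -5 or less and 35 at -7 or less, and the lowest was -11.65.

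The lost genes that were highest in ovary carried most of the lost RNA. These 196 genes had medians of 98.2 RPKM in ovary, 7.4 in embryo, 11 in larva and 3.05 in testis, and they held 26.8% of the summed ovary RPKM. The 238 with testis as the highest column had medians of 417 RPKM in testis, 18.9 in ovary and 1.1 in embryo. The 117 with larva as the highest had medians of 97.4 RPKM in larva, 14.5 in ovary and 0.8 in embryo, and those highest in adult soma 846 RPKM in the highest somatic column, 18.8 in ovary and 0.7 in embryo. The last 3 groups held 6.16%, 0.61% and 3.03% of the ovary sum.

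Genes led by testis or by larva stood in ovary at a narrow share of their level in the leading column, and many of them were called lost. Testis-led genes, 821 by the 50 RPKM and 20% rule, had a median ovary level of 3.60% of testis (quartiles 2.81% and 4.74%) and a median embryo level of 1.00%. All but 4 were detected in ovary. Of these 821 genes, 215 were lost, 322 kept and 5 gained. Over all genes the shares were 4.84% lost, 43.5% kept and 9.93% gained. Larva-led genes, 170 in number, stood at 9.78% of larva in ovary (quartiles 8.40% and 11.4%) and at 2.75% in embryo (quartiles 0.66% and 9.63%), and 61 were lost and 0 gained. Among the 167 intestine-led genes the medians were 0.85% in ovary and 0.95% in embryo, with 16 lost and 9 gained. The lost genes led by testis had a median ovary share of 3.99%, and those led by larva 9.55%. They are part of the led genes above and are no second observation.

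The size of the lost class therefore depended on how such genes were treated. With 3.60% of testis and 9.78% of larva subtracted from ovary, 416 of the 748 lost genes were still lost. Lowering ovary cannot add lost genes, and 0 were added. Of the 117 lost genes highest in larva, 91 were no longer lost, and of the 196 highest in ovary 6 were not. Both counts are largely built in. The subtracted shares are medians over the testis-led and larva-led genes themselves. From a gene highest in ovary, the subtraction can take only a small part of the ovary level. Ovary had a median of 49.9 RPKM and embryo of 2.45 RPKM over the 416 genes, which held 33.4% of the ovary sum. All 1534 gained genes were still gained and the class grew to 2539, since lowering ovary can only add to it. Whether the narrow shares are ovary expression or RNA of other libraries was not tested.

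Lost genes were found in testis and adult soma at shares near those of all genes. Of the 748, 503 (67.2%) were detected in both testis and adult soma, 163 (21.8%) in soma without testis, 43 (5.75%) in testis without soma and 39 (5.21%) in neither. Over all genes these shares were 60.0%, 23.7%, 6.56% and 9.72%, and over genes at 5 RPKM or more in ovary 88.7%, 9.09%, 1.34% and 0.83%. Larva detected 710 of the lost genes (94.9%), against 81.2% of all genes and 98.0% of genes at 5 RPKM or more in ovary. In 457 of the lost genes (61.1%) ovary was at least 4-fold below the highest of the other 6 columns, against 35.1% of all genes. In 102 (13.6%) it was at least 4-fold above all 6, against 1.57% of all genes. Between the carcasses, 127 lost genes (17.0%) were at least 4-fold higher in male and 66 (8.82%) in female, with 3.59% and 2.40% of all genes. The lost genes had the higher median in male carcass, 5.85 RPKM against 2.9 in female, the reverse of the order in gained genes. The lost class held 215 testis-led genes. Testis-led genes had in male carcass 0.75% of the testis level (median), and in female carcass 0.14%. Among the 533 lost genes that testis did not lead, 35 (6.57%) were at least 4-fold higher in male and 66 (12.4%) in female. Their median log2 difference, female minus male, was 0.07. This split was added after the values above were seen. The cause of the order over all lost genes was not tested.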

How the data were processed

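Libraries were made from polyadenylated RNA with random primers and 17 PCR cycles, per the labels' protocols. The authors deposited RPKM values with 1 decimal. Per the submitters' processing notes the tools were TopHat and Cufflinks, with no versions. The sources used here do not state the genome build, annotation, gene lengths or read totals. RPKM rounded to 0.1 did not allow whole reads to be recovered, so depth is unknown and no interval or detection limit is given.

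Columns were matched to samples by title, and 0 columns came from outside the series. Ratios, classes and shares were computed with numpy 2.4.6 and pandas 2.3.3. The classification was tested on simulated data. Members, classes and rules were chosen with earlier results of these data known. Named genes are the 2 gained with the highest embryo level, the 2 lost with the highest ovary level and the 2 kept with the highest lower value. Planned gene lists could not be matched to identifiers. Alternatives were pseudocounts, thresholds, a minimum level, 4 scalings, a subtraction from ovary, other detection limits and each somatic column left out.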

Additional observations from a re-analysis of the deposited data

How the results depend on the processing

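Each stage is a single column, with no interval, test or left-out replicate, and depth is unknown. No paired analysis was possible because no result comes from a test and the columns carry no replicate numbers. Values of counts within 1.5 times the reported one, or of the median log2 ratio within 0.1, are not listed. The called named genes kept their direction and stayed past the threshold under every pseudocount, scaling and subtraction tried, and the kept genes ASG02173 and ASG07513 moved as given above.

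A pseudocount of 0.1 gave 2508 gained and 1584 lost genes, a median log2 ratio of 0.47, and gained genes found in testis alone 125, in adult soma alone 858 and in neither 352. A pseudocount of 5 gave 694 gained, 360 lost, a median of 0.16, and 11, 133 and 7, with 543 in both. A log2 threshold of 1 gave 4608 gained and 2111 lost, with 161 in testis alone, 1008 in soma alone, 3140 in both and 299 in neither. A threshold of 3 gave 487 and 326, with 12, 159, 294 and 22. With a minimum of 5 RPKM the median was 0.63.

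Scaling by the upper quartile turned the median to -0.014, with 876 gained, 1134 lost, 276 in soma alone and 508 in both. The median ratio turned it to -0.032, with 859 gained, 1147 lost, 31 in testis alone, 271 in soma alone and 498 in both. An equal sum without the 100 highest genes gave 0.071, 1018 gained and 600 in both. Subtraction from ovary gave 0.68, 2539 gained, 416 lost, 112 in testis alone and 1695 in both.

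Detection at 0.5 RPKM left 23 gained genes in testis alone and 35 in neither, and at 5 RPKM 119 and 496, with 364 in both. Without female carcass these were 137 and 167. Scaling to an equal sum, and leaving out intestine, muscle or male carcass, moved no count by more than 1.5 times. Beyond what each alternative changes by construction, the cause of these shifts was not tested.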
